A study of Mus musculus with 8 samples.

Results

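The difference described here is that between brain microglia of Calhm2 conditional knockout mice with and without Alzheimer's disease (AD), that is, what the disease model changes in these cells once Calhm2 has been deleted. It sets 4 of the 8 RNA-seq libraries of the series against each other, while all 8 entered the model and the other 4 add to its estimate of the spread behind each test. The groups compared are Calhm2 conditional knockout mice without AD (cKO, 2 libraries) and Calhm2 conditional knockout mice with AD (cKO/AD, 2 libraries), so both carry the deletion and differ by the diagnosis on the label. Wild-type mice without AD (WT, 2 libraries) and wild-type mice with AD (WT/AD, 2 libraries) give the same difference with Calhm2 intact. All groups are of strain C57BL/6 and 6 months of age, and the cells were isolated from the brain. Of 55421 genes in the table, 22089 passed the filter on low counts and were tested. The labels name neither the mouse model of AD, nor the Cre driver of the deletion, nor the number of animals behind a library. Whether the 2 libraries of a group were taken from different mice is not stated, and the p-values therefore speak of library-to-library spread, some or all of which may be technical.

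Microglia are the resident macrophages of the brain. Near amyloid deposits they take up a state called disease-associated microglia (DAM), in which genes of lipid handling, lysosomal proteases and phagocytic receptors are high and genes of the resting, or homeostatic, state are low. In mice, part of this programme depends on Trem2, a lipid-sensing receptor that signals through the adaptor Tyrobp. Calhm2 encodes a large-pore membrane channel of the calcium homeostasis modulator family.

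The genes that rose and the genes that fell differed in base composition around the gene's start as well as in their transcripts. For this reason 4 genes are printed, and Spp1 and Ifit1 are added for motif matches. In all these are 6 stretches of DNA around the start of a gene. Each is the RefSeq window of 250 bases before to 50 bases after the gene's start, on build GRCm38.p6, written 5′ to 3′ on the gene's strand. That build is later than the mm9 named for the counts, so the windows describe sequence and are joined to the data by gene symbol. In the first 4, capitals mark each CpG, a C followed by a G. Cst7 (chr2:150570165-150570464, plus strand) and Clec7a (chr6:129472730-129473029, minus strand, the first of 2 windows of this gene) belong to genes that rose, and each holds 5 CpG. Hps6 (chr19:46003228-46003527, plus strand) and Klf11 (chr12:24651121-24651420, plus strand) belong to genes that fell, and they hold 24 and 42 CpG.
Cst7: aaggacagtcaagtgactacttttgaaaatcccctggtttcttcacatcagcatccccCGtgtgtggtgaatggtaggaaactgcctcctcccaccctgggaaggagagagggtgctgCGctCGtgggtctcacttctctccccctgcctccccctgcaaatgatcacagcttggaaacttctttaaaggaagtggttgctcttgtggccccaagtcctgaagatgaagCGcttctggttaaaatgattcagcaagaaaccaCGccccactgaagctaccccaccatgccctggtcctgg
Clec7a: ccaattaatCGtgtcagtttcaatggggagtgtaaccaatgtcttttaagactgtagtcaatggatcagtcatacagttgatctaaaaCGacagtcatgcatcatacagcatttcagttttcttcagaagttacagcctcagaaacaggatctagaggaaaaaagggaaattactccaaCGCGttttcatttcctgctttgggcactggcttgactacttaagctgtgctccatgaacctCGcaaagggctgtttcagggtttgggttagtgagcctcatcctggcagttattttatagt
Hps6: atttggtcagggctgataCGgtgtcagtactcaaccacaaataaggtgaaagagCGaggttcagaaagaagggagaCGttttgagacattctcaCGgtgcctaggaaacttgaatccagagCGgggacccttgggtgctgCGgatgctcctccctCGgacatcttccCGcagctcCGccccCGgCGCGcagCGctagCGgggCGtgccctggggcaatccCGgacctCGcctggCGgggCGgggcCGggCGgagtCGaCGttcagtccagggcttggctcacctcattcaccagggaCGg
Klf11: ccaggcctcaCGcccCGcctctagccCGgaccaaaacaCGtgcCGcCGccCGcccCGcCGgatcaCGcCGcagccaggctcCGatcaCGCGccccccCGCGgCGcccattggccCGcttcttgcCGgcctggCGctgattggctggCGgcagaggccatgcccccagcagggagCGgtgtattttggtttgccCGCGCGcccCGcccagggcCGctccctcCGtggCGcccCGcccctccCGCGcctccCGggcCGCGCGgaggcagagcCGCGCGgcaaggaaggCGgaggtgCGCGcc
In the next windows, capitals mark motif matches. Spp1 (chr5:104434861-104435160, plus strand, the first of 2 windows) rose. It holds the 7-base element of the microglial transcription factor PU.1, GAGGAAG, at base 138, and the 10-base interferon-stimulated response element (ISRE) on the opposite strand at base 94. Ifit1 (chr19:34640639-34640938, plus strand), an interferon-induced gene described further on, is not among the genes called as risen or fallen. It holds the ISRE at bases 147 and 166, both on the opposite strand.
Spp1: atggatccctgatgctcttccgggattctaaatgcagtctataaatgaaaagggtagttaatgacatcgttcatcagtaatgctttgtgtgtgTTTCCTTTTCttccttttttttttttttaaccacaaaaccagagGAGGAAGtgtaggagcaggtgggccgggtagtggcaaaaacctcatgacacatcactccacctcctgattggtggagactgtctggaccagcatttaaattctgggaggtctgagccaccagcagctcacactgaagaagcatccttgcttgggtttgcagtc
Ifit1: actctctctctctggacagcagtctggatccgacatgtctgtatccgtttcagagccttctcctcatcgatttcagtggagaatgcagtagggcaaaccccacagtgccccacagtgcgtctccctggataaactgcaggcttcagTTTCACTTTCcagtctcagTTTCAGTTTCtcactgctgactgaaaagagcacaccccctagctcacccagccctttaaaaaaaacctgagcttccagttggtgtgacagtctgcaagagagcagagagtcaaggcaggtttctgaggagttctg
A RefSeq window was found for 9 of the 14 genes that rose, 25 of the 34 that fell and 13788 of all tested genes. The median GC content was 50.3% over the genes that rose, 62.7% over those that fell and 59.3% over all, with 5, 22 and 18 CpG a window. Searched on both strands, GAGGAAG was present for 33.3% of the genes that rose (Spp1, Frrs1 and Plaur), 8% of those that fell and 15.9% of all. Over a list of DAM genes with a window GAGGAAG was present for 15.6% (5 of 32), close to the share of all. A gene counts if any of its windows holds a match. The genes that rose had a mean of 1.56 windows, those that fell 1.24 and all 1.27. The ISRE was present for 63.6% of type I interferon response genes with a window (14 of 22) against 3.76% of all. CACGTG, the core of the element bound by the lysosomal regulators TFEB and MITF, was present for 38.2% of lysosome and autophagy genes with a window (13 of 34) and 10.6% of all. These 3 motifs overlap none of one another in the printed windows, and a match is a description of the letters, not of binding.

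The libraries held between 18218165 and 25774587 counts. The first cKO/AD library stands apart: it had 18693 genes with a count (22088 to 25988 in the other 7) and 4.73% of its counts on mitochondrially encoded genes (1.37% to 2.36% in the other 7). The 2 cKO/AD libraries correlated across tested genes at 0.886 on log2 CPM, and the pairs of the other groups at 0.964 to 0.972. All 10 microglial markers checked were present in every library, the lowest at 102 CPM, the counts of a gene scaled to a library of 1e+06 counts. Their summed level was 20158 and 23608 CPM in cKO and 13823 and 18257 CPM in cKO/AD. In bulk RNA, fewer cells of a type and less RNA per cell cannot be told apart, which applies to every level given here. Levels are given per library in CPM, which does not correct for transcript length and is compared between libraries only, not between genes.

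Calhm2 (ENSMUSG00000033033.10), the targeted gene, was low in both groups. It was at 4.76 and 4.70 CPM in cKO and 2.50 and 1.56 CPM in cKO/AD, from 96 and 107 counts and 44 and 35 counts. The groups did not overlap, but the log2 difference of -1.22 (SE 0.47) did not pass the threshold (adjusted p = 0.176). With Calhm2 intact the levels were 10.3 and 12 CPM in WT and 16.4 and 13.7 CPM in WT/AD, above those of all 4 knockout libraries.

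With Calhm2 deleted, 14 genes were higher and 34 lower in AD (edgeR, adjusted p under 0.05 over all tested genes). These are 0.0634% and 0.154% of the genes tested. A list of 40 DAM genes, chosen with earlier results of these data known, holds 7 of the rises and 0 of the falls. In all, 5168 genes, called ones included, had an unadjusted p under 0.05, and without any test 20.3% of tested genes were higher and 31.1% lower in both cKO/AD libraries than in both cKO libraries. Differences were positive for 44.4% of all tested genes and negative for 55.6%. GC-rich transcripts were lower in cKO/AD, so a fit with each library's dependence on transcript GC content removed is given beside the results: it called 12 genes higher (0.0543%) and 13 lower (0.0589%), and it kept 9 of the 14 rises and 12 of the 34 falls. Without scaling beyond library size the split was 18 higher and 139 lower, and with transcript length corrected it was 15 and 21.

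Calls rested on how the spread was estimated from few libraries. The log2 difference between the 2 libraries of a group had an SD across genes of 1.39 in cKO/AD and 0.626 to 0.71 in the other groups. The main fit shares 1 spread per gene over all groups. It can therefore understate the spread of cKO/AD, and the adjusted p-values and standard errors given here can be too small. The same fit with edgeR's newer spread estimate, tried after seeing the data, called 368 genes higher (1.67%) and 425 lower (1.92%), with 14 of the 14 rises and 33 of the 34 falls among them. No call was kept without WT replicate 1, WT replicate 2 or cKO replicate 2, or with the 4 cKO and cKO/AD libraries alone. Without either WT/AD library Cst7 and Spp1 alone were kept, and without cKO replicate 1 it was 6 rises and 14 falls. Without the cKO/AD library that stands apart, or without the other one, 611 genes were higher and 1401 lower, or 3017 and 5553, with the 14 rises and 34 falls among them. In both of these fits cKO/AD is a lone library assumed to vary like the other groups, and the pair that correlated least is out of the estimate of the spread, so these counts are no sign of stability. The sign of all 48 differences was kept with each of the 8 libraries left out. Another method, limma-voom, kept 14 of the 14 rises and 20 of the 34 falls. With weights that let each group have its own spread, limma-voom kept 14 of the 14 rises and 4 of the 34 falls.

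The largest rises were those of Cst7, Ctse, Ccl3, Clec7a and Spp1. Cst7 (ENSMUSG00000068129.5), which encodes cystatin F, an inhibitor of lysosomal cysteine proteases, was at 11.1 and 5.27 CPM in cKO and 278 and 202 CPM in cKO/AD. Both disease libraries were far above both others, and Cst7 rose 29.3-fold (log2 4.87, SE 0.38, adjusted p = 0.0137). In WT it was at 3.61 and 3.68 CPM and in WT/AD at 550.4 and 514 CPM, so the 4 AD libraries were the high ones and the cKO/AD libraries the lower pair among them. Ctse (ENSMUSG00000004552.16), which encodes the aspartic protease cathepsin E, was at 3.07 and 1.80 CPM in cKO and 38.4 and 43.7 CPM in cKO/AD (log2 4.08, SE 0.37, adjusted p = 0.0150). Its level in cKO/AD lay just under the 44.2 and 47.3 CPM of WT/AD. Clec7a (ENSMUSG00000079293.11), the receptor dectin-1 for fungal glucans, was at 10.6 and 12.2 CPM in cKO and 109 and 84.6 CPM in cKO/AD (log2 3.09, SE 0.25, adjusted p = 0.0137). The range of the cKO/AD pair took in that of WT/AD, at 84.6 and 92.9 CPM.

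Spp1 (ENSMUSG00000029304.14), which encodes osteopontin, was at 52.3 and 58.6 CPM in cKO and 414 and 375 CPM in cKO/AD. It rose 7.11-fold (log2 2.83, SE 0.19, adjusted p = 0.0117), and both cKO/AD libraries were above the 218 and 262 CPM of WT/AD. Ccl3 (ENSMUSG00000000982.5), a chemokine that attracts immune cells, was at 10.8 and 7.42 CPM in cKO and 114 and 68.8 CPM in cKO/AD (log2 3.33, SE 0.33, adjusted p = 0.0220). Ccl6 (ENSMUSG00000018927.3), a further chemokine, was at 207 and 194 CPM in cKO and 1042 and 607 CPM in cKO/AD (log2 2.04, SE 0.27, adjusted p = 0.0429). For both chemokines the first cKO/AD library was the higher one, and the groups did not overlap. Without that library the log2 difference was 2.92 for Ccl3 and 1.60 for Ccl6.

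Lipid handling was represented by 2 rises. Lpl (ENSMUSG00000015568.16), lipoprotein lipase, was at 17.5 and 15.9 CPM in cKO and 96.2 and 103 CPM in cKO/AD (log2 2.57, SE 0.22, adjusted p = 0.0137). Apoe (ENSMUSG00000002985.16), the main lipid carrier of the brain, was at 1003 and 946 CPM in cKO and 2364 and 2625 CPM in cKO/AD (log2 1.36, SE 0.19, adjusted p = 0.0489). The Lpl pair lay above WT/AD (74 and 66.8 CPM) and the Apoe pair below it (4534 and 3644 CPM). Apoe has a GC-rich transcript, 59.5%, and with GC content corrected its log2 difference was 2.60 (adjusted p = 0.0242).

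Of the other rises, Plaur, the receptor of the protease urokinase, went from 39.9 and 38.9 to 144 and 157 CPM (log2 1.93, SE 0.18, adjusted p = 0.0150). Capg, which encodes an actin filament capping protein of macrophages, went from 57.2 and 56.7 to 146 and 156 CPM (log2 1.41, SE 0.17, adjusted p = 0.0379). In both genes the 2 libraries of each group were close together and the groups lay far apart. Poldip3, which encodes an RNA-binding protein, went from 163 and 160.2 to 527 and 402 CPM, and Frrs1, a ferric chelate reductase gene, from 96.8 and 79.3 to 248 and 226 CPM (log2 1.52 and 1.43; adjusted p = 0.0413 and 0.0429). These 2 are the only rises whose difference had the other sign with Calhm2 intact, -0.25 and -0.42. The pseudogene Znf41-ps (log2 2.70, adjusted p = 0.0465) and the predicted gene Gm37776 (log2 2.66, adjusted p = 0.0489) complete the 14. Ccl6, Poldip3, Frrs1, Znf41-ps and Gm37776 did not pass with GC content corrected (log2 1.93, 2.08, 1.28, 2.25 and 2.26, adjusted p = 0.0580 to 0.0617), while the other 9 did. Cd83, a surface protein of activated myeloid cells, and G6pc3 were among the genes that passed with GC content corrected but not without (log2 1.81 and 1.69), and are named after their values were seen.

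**Figure D1:**
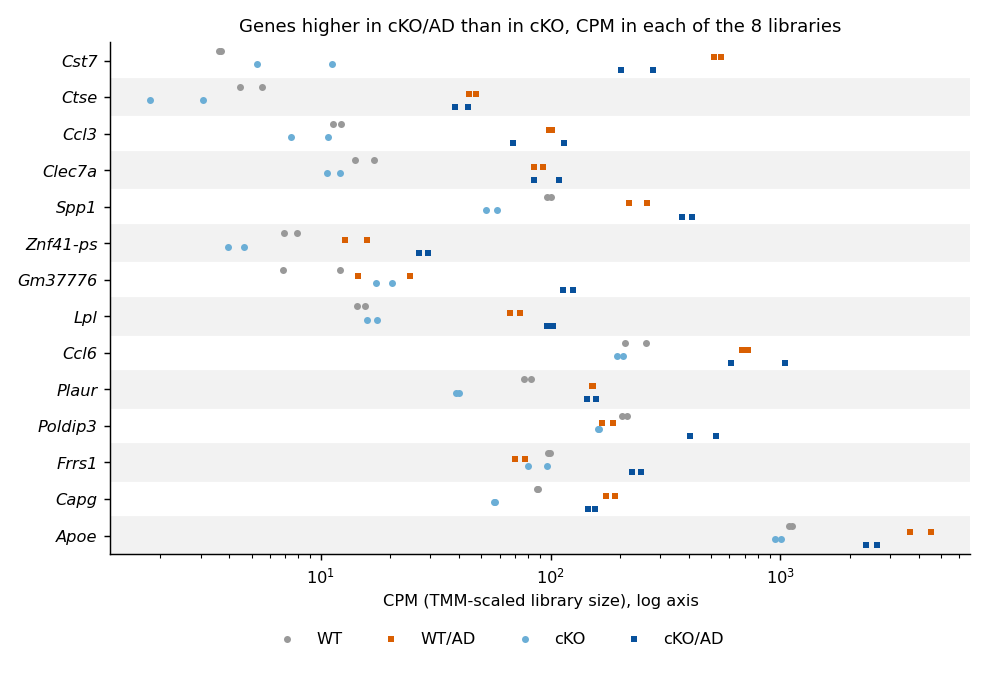
Each point is 1 library; the x axis is CPM on a log axis, rows are the 14 genes higher in cKO/AD than in cKO, circles are libraries without AD (WT grey, cKO light blue) and squares libraries with AD (WT/AD orange, cKO/AD dark blue). In every row both dark blue squares lie to the right of both light blue circles; for Poldip3 and Frrs1 the orange squares do not lie to the right of the grey circles.

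Of the 40 genes of a DAM list, all tested, 7 rose and 0 fell: Cst7, Clec7a, Spp1, Lpl, Ccl6, Capg and Apoe. Of all tested genes 0.0634% rose and 0.154% fell. The list was chosen with earlier results of these data known, so these shares are a description and not a test. The median log2 difference of the list was 0.95, against -0.13 over all tested genes, and 0.84 without the first cKO/AD library. Differences were positive in 32 of the 40 (44.4% of all tested genes), and for 25 both cKO/AD libraries were above both cKO libraries (20.3% of all). The list's summed level was 12438.5 and 12594 CPM in cKO and 20848 and 20663 CPM in cKO/AD. With GC content corrected 6 of the 7 passed, all but Ccl6, and the median was 1.05 against 0.01 over all genes; with the newer spread estimate 15 members passed, all of them higher. With Calhm2 intact the median of the same list was 1.04.

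Several members were higher in both cKO/AD libraries without passing the test. Itgax, the integrin CD11c, was at 4.46 and 4.48 CPM in cKO and 12.3 and 15.7 CPM in cKO/AD (log2 1.65, adjusted p = 0.0778). Axl, a receptor kinase for the clearance of dead cells, was at 27.9 and 42.7 and at 135 and 85.6 CPM (log2 1.64, adjusted p = 0.0556). Igf1, a secreted growth factor, was at 17 and 15.5 and at 150.1 and 47.5 CPM (log2 2.60, adjusted p = 0.0631), with the first cKO/AD library far above the second. Cd63, Cd9 and Cd68, membrane proteins of endosomes, the cell surface and lysosomes, had log2 differences of 1.72, 1.00 and 1.20 (adjusted p = 0.0522, 0.0590 and 0.0590). Ctsz, a cathepsin gene, was at 275 and 289 and at 529.6 and 529 CPM (log2 0.91, adjusted p = 0.0556), and B2m, the light chain of MHC class I, had a log2 difference of 1.00 (adjusted p = 0.0579). Axl, Igf1, Cd63, Cd9, Cd68, Ctsz, B2m and Mitf are the 8 members that passed with the newer spread estimate beyond the 7.

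The receptor pair and several lysosomal proteases of the list were not higher as fitted. Trem2 (ENSMUSG00000023992.14) was at 62.6 and 87.9 CPM in cKO and 49.2 and 64.2 CPM in cKO/AD (log2 -0.41, SE 0.23, adjusted p = 0.316), so the groups overlapped. Its signalling partner Tyrobp was at 7.04 and 6.89 and at 5.28 and 5.04 CPM (log2 -0.43, SE 0.42, adjusted p = 0.575; 0.26 with GC content corrected). The protease genes Ctsd, at 116 and 149 and at 107 and 130.1 CPM, and Ctsl, at 456 and 565 and at 375 and 416 CPM, had log2 differences of -0.16 and -0.37 (adjusted p = 0.728 and 0.260). With GC content corrected the log2 difference of Ctsd turned to 0.66, while Ctsl was at -0.54 and Trem2 at -0.16. With Calhm2 intact the differences of Trem2, Tyrobp, Ctsd and Ctsl were 1.26, 1.46, 1.50 and 1.03. The difference between the 2 differences, the interaction, was -1.67 for Trem2 (95% interval -2.42 to -0.93, adjusted p = 0.0589), -1.89 for Tyrobp (-3.27 to -0.52, adjusted p = 0.126), -1.66 for Ctsd (-2.43 to -0.88, adjusted p = 0.0640) and -1.40 for Ctsl (-1.99 to -0.81, adjusted p = 0.0573). None of these passed the threshold, and these interactions are not corrected for GC content. The 95% intervals here and below are not adjusted for the number of genes tested.

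The estimates for galectin 3, cystatin F and osteopontin stood in 3 different ways to those with Calhm2 intact. None of the 40 DAM genes passed the interaction test. Lgals3, which encodes galectin 3, was at 20.6 and 19.9 CPM in cKO and 5.90 and 15.3 CPM in cKO/AD (log2 -0.93, adjusted p = 0.235), against 0.69 with Calhm2 intact. For Cst7 the interaction was -2.32 (95% interval -3.43 to -1.20, adjusted p = 0.0642) and for Spp1 it was 1.54 (0.95 to 2.14, adjusted p = 0.0563). For Clec7a, Lpl, Ccl3, Ctse, Ccl6, Capg and Apoe the intervals held 0, from -0.18 to 1.34 for Clec7a, -0.33 to 1.01 for Lpl, -0.74 to 1.23 for Ccl3, -0.20 to 1.97 for Ctse, -0.40 to 1.33 for Ccl6, -0.20 to 0.91 for Capg and -1.14 to 0.09 for Apoe, so no difference between the genotypes was detectable for them. Gpnmb, a transmembrane glycoprotein of the late DAM state, was at 5.20 and 3.55 CPM in cKO, 5.39 and 22.4 CPM in cKO/AD, and 61.2 and 62 CPM in WT/AD. Its log2 difference was 1.67 (adjusted p = 0.160) and rested on the second cKO/AD library. Mitf, a regulator of lysosomal genes, was at 18.5 and 19.3 CPM in cKO and 42.6 and 46.4 CPM in cKO/AD (log2 1.23, adjusted p = 0.0688) but at 22 and 16.5 CPM in WT and 9.93 and 9.82 CPM in WT/AD. Its interaction was 2.20 (95% interval 1.27 to 3.12, adjusted p = 0.0573). Atp6v0d2, a proton pump subunit, had 0 counts in all cKO and cKO/AD libraries, and no fold is given.

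**Figure D2:**
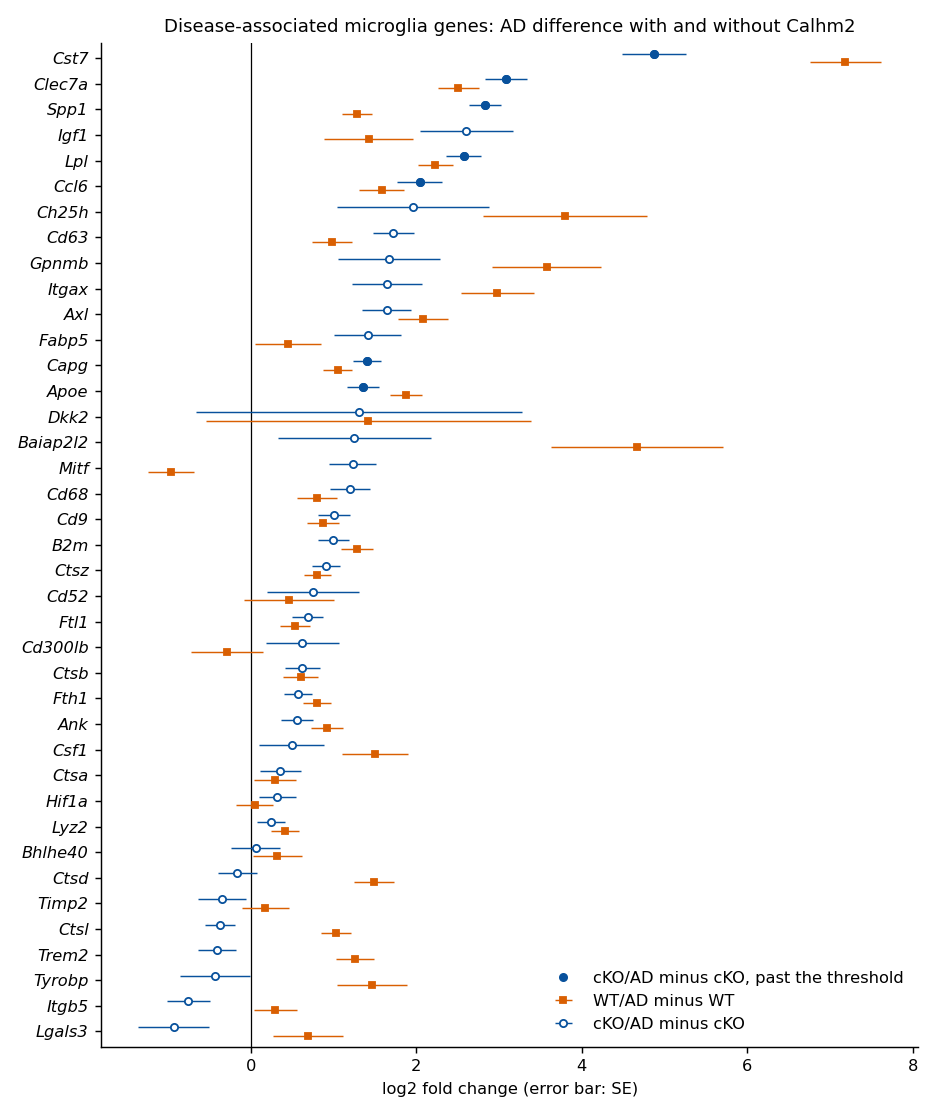
The x axis is the log2 fold change with its standard error as a bar, for 39 DAM genes in rows (Atp6v0d2, with 0 counts in both knockout groups, is not drawn); blue circles are cKO/AD minus cKO, filled where the gene passed the threshold, and orange squares WT/AD minus WT. Cst7 is rightmost in both; at the foot of the plot Ctsd, Ctsl, Trem2, Tyrobp and Lgals3 lie left of 0 in blue and right of 0 in orange.

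Homeostatic genes did not pass the test in either direction, 0 of 35. Their median log2 difference was -0.38, or -0.14 with GC content corrected, and 25 of the 35 were negative, where 55.6% of all tested genes were and the median of all was -0.13. P2ry12, the purinergic receptor that guides microglial processes, was at 6229 and 5456 CPM in cKO and 7233 and 7401 CPM in cKO/AD (log2 0.32, SE 0.21, adjusted p = 0.384). Tmem119, a microglial surface protein, was at 5092 and 6121 and at 1368 and 3697 CPM (log2 -1.15, SE 0.41, adjusted p = 0.149). Both cKO/AD libraries were below both cKO libraries for Tmem119 and above them for P2ry12. Cx3cr1, the fractalkine receptor, was at 2067 and 2946 and at 347 and 1246 CPM (log2 -1.65, SE 0.51, adjusted p = 0.113), and Csf1r, the survival receptor of microglia, at 3299 and 5038 and at 1360.1 and 2288 CPM (log2 -1.19, SE 0.31, adjusted p = 0.0817). Adgrg1, an adhesion receptor of yolk-sac-derived microglia, had the smallest adjusted p of the list (log2 -1.84, adjusted p = 0.0714). In Tmem119, Cx3cr1 and Csf1r the first cKO/AD library, the one that stands apart, was the lowest. With GC content corrected P2ry12 was at -0.04, Tmem119 at -0.14, Csf1r at -0.61 and Cx3cr1 at -1.54.

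Among lysosome and autophagy genes 1 of 43 rose, Ctse, and 0 fell, with a median of 0.02. Over all tested genes 0.0634% rose and 0.154% fell, with a median of -0.13. Npc2, which carries cholesterol out of lysosomes, was at 739.7 and 701 CPM in cKO and 1549.6 and 1287 CPM in cKO/AD (log2 0.98, adjusted p = 0.0556), and Smpd1, acid sphingomyelinase, was at 152 and 219 and at 42.9 and 84 CPM (log2 -1.55, adjusted p = 0.0615). In lipid handling, 2 of 26 rose, Lpl and Apoe, around a median of -0.07. Abcg1, a cholesterol exporter, was at 724 and 471 CPM in cKO and 2687 and 1135 CPM in cKO/AD (log2 1.68, adjusted p = 0.0705), with a difference of -0.46 in the intact genotype. No cholesterol synthesis gene passed among 25 (median -0.32).

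Among cytokine and chemokine genes 2 of 31 rose, Ccl3 and Ccl6, and 0 fell, with a median of 0.45. Of all tested genes 0.0634% rose and 0.154% fell, and their median was -0.13. Ccl12 was at 13.1 and 8.03 CPM in cKO and 34 and 25.7 CPM in cKO/AD (log2 1.49, adjusted p = 0.0725). Ccl2, a monocyte attractant, was at 8.82 and 7.42 and at 58.6 and 11.4 CPM (log2 2.11, adjusted p = 0.136), and that difference came mostly from the first cKO/AD library. The interleukin gene Il1b was at 0.347 and 1.76 CPM and at 0.454 and 0.714 CPM, Tnf at 3.77 and 2.59 and at 0 and 5.93 CPM, and Nlrp3, the inflammasome sensor, at 2.82 and 5.40 and at 0.341 and 4.95 CPM. At these few counts the groups overlapped and no difference was detectable (log2 -0.84, -0.09 and -0.63; adjusted p = 0.734, 0.988 and 0.770). No NF-kappaB or inflammasome gene passed among 25 (median -0.15).

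Of 31 type I interferon response genes 0 passed, while 23 were positive (44.4% of all tested genes) and 18 were higher in both cKO/AD libraries (20.3% of all). The median was 0.54 (0.85 with GC content corrected, 0.58 without the first cKO/AD library). Ifit1, which binds foreign RNA ends and whose window holds 2 ISRE matches, was at 9.96 and 9.13 CPM in cKO and 27.4 and 24.3 CPM in cKO/AD (log2 1.44, SE 0.31, adjusted p = 0.0622). Ifit2 was at 17.9 and 12.7 and at 43.5 and 41.1 CPM (log2 1.47, adjusted p = 0.0698), and Ifit3 at 11.5 and 9.17 and at 24.8 and 21.8 CPM (log2 1.17, adjusted p = 0.0915). In WT and WT/AD the order was the other way for Ifit1, 23.7 and 26.6 against 10.8 and 9.42 CPM, and the cKO/AD level was close to that of WT. The interaction of Ifit1 was 2.75 (95% interval 1.75 to 3.74, adjusted p = 0.0537) and that of Ifit3 was 2.11 (1.05 to 3.17, adjusted p = 0.0675), neither past the threshold. The list's median with Calhm2 intact was -0.12.

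Of 14 MHC class II and costimulation genes 11 were positive, where 44.4% of all tested genes were. For 8 both cKO/AD libraries were above both cKO libraries and for 2 below, where 20.3% and 31.1% of all were. The class II genes named here had differences of both signs. Cd74, the invariant chain, was at 174 and 103 CPM in cKO and 454 and 313 CPM in cKO/AD (log2 1.47, adjusted p = 0.0590), and H2-Ab1 at 386 and 293 and at 592 and 529.7 CPM (log2 0.72, adjusted p = 0.0845). H2-Aa, which encodes the chain that pairs with the product of H2-Ab1, was at 192 and 217 and at 104 and 141 CPM (log2 -0.74, adjusted p = 0.0887). None of the 14 class II and costimulation genes passed (median 0.57), none of 17 class I genes (median 0.27) and none of 29 complement and phagocytic receptor genes (median -0.06, or 0.42 with GC content corrected).

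Mitochondrially encoded respiratory chain genes had the highest list median, 1.09 over 10 genes, and it was 0.38 without the first cKO/AD library. Their summed level was 51069 CPM in that library and 22022 CPM in the other cKO/AD library, against 13006 and 10825.5 CPM in cKO, and 0 of 10 passed. Nuclear-encoded respiratory chain genes had a median of 0.29 (0 of 40 passed), glycolysis genes -0.42 (0 of 23; 0.06 with GC content corrected), cytosolic ribosomal protein genes 0.16 (0 of 44; 0.88 with Calhm2 intact) and cell cycle genes 0.52 (0 of 32). Immediate-early and dissociation stress genes, which respond to cell isolation, had a median of -0.63 (0 of 29; -0.20 with GC content corrected). Calcium handling and purinergic receptor genes had a median of 0.00 (0 of 41), and amyloid processing and clearance genes -0.28 (0 of 28).

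**Figure D3:**
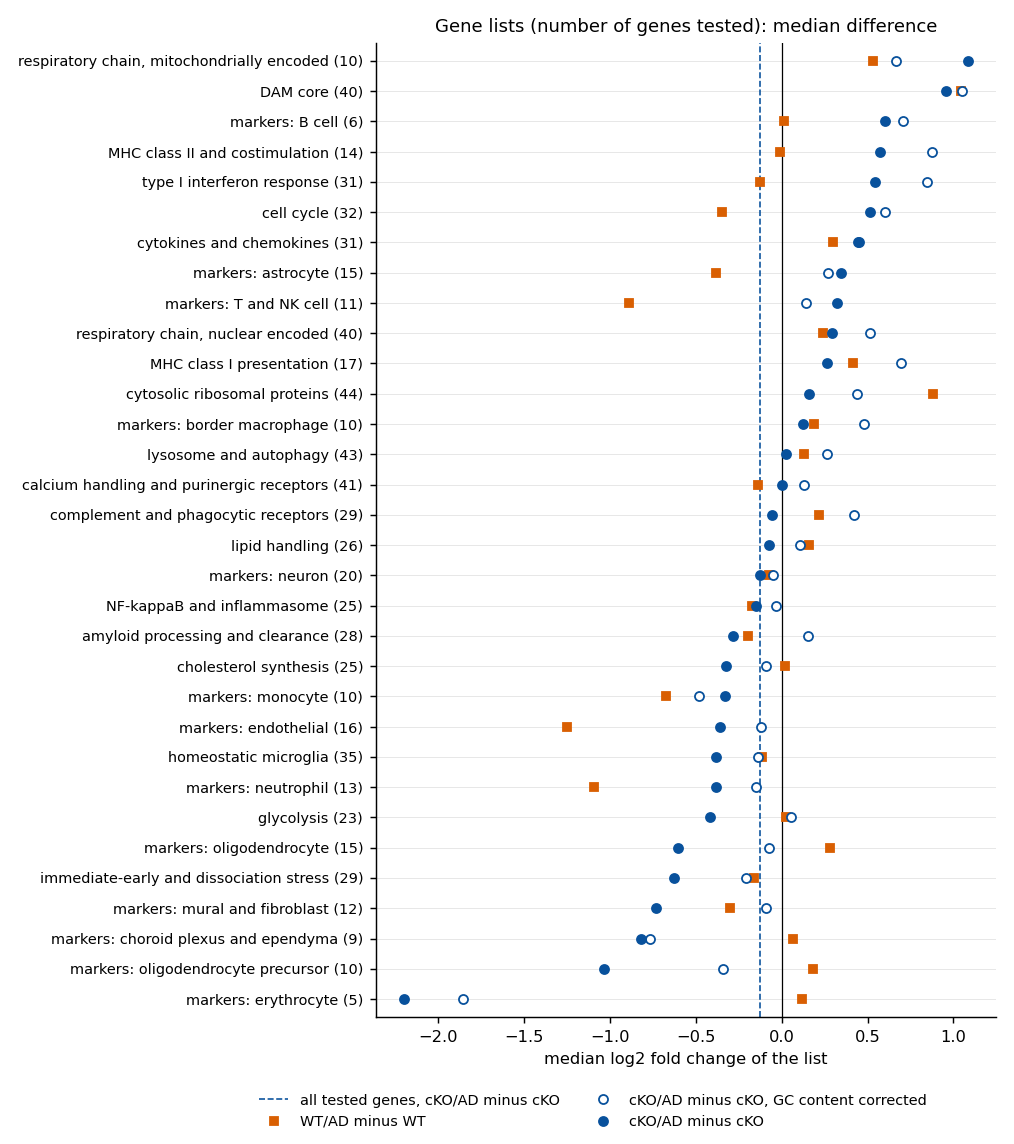
The x axis is the median log2 fold change of each gene list (rows, with the number of genes tested); filled blue circles are cKO/AD minus cKO, open blue circles the same with GC content corrected, orange squares WT/AD minus WT, and the dashed line the median of all tested genes in cKO/AD minus cKO, -0.13. The mitochondrially encoded and DAM lists are at the top, 1.09 and 0.95, and the erythrocyte markers at the foot, -2.20 over 5 genes.

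None of the 34 falls belongs to the DAM or homeostatic list. A set of 6 all but disappeared from cKO/AD. Both cKO/AD libraries had fewer genes with a count (18693 and 22088) than any library of the other groups. The part of this in these falls was not tested. Hps6 (ENSMUSG00000074811.3), a subunit of a complex that builds lysosome-related organelles, was at 9.76 and 12 CPM in cKO and had 0 and 1 counts in cKO/AD. Over the group this is 471 against 1 counts, 439-fold lower (95% counting interval 78.4 to 17400, adjusted p = 0.0150). Klf11, a zinc finger transcription factor gene, had 544 against 3 counts, 169-fold lower (57.5 to 822, adjusted p = 0.0236). Ajuba, a scaffold protein of cell junctions, Gja4, a connexin of arterial endothelium, and Evc, a protein of the primary cilium, had 258, 260 and 250 counts in cKO and 3 each in cKO/AD. Pcdhga6, a clustered protocadherin that shares exons with its neighbours so that its counts are uncertain, had 175 against 2 counts. All 6 were present in both WT and both WT/AD libraries, at 4.03 CPM or more. With GC content corrected Hps6, Klf11 and Ajuba passed (log2 -7.57, -7.15 and -5.31), and Gja4, Evc and Pcdhga6 did not (adjusted p = 0.0616 each). These intervals cover counting error only.

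A further 5 falls were of genes known from neurons or from glutamate transport. Slc17a7 (ENSMUSG00000070570.5), the vesicular glutamate transporter of excitatory neurons, was at 58.8 and 83.2 CPM in cKO and 7.61 and 11.2 CPM in cKO/AD. It fell by 2.92 on the log2 scale (SE 0.32, adjusted p = 0.0236), and both cKO/AD libraries were far below all 6 others. Grin2c, an NMDA receptor subunit of cerebellar granule cells and astrocytes, was at 35.5 and 58 and at 5.73 and 5.17 CPM (log2 -3.10, SE 0.33, adjusted p = 0.0236). Slc25a22, a mitochondrial glutamate carrier, was at 86.3 and 121 and at 13.8 and 19.5 CPM (log2 -2.63, SE 0.27, adjusted p = 0.0236). In these genes the WT/AD libraries were level with WT or above it, at 102 and 78.2 CPM for Grin2c and 262 and 219 CPM for Slc25a22. Cbln3, a synapse organizer of the cerebellum, was at 191 and 257 and at 51 and 75.2 CPM, and Cx3cl1, fractalkine, the neuronal ligand of the microglial receptor Cx3cr1, at 270.3 and 411 and at 88 and 105 CPM (log2 -1.83 and -1.82; adjusted p = 0.0429 each). With GC content corrected Slc17a7, Slc25a22 and Cbln3 passed (log2 -2.06, -1.64 and -1.74), while Grin2c and Cx3cl1 did not (-1.52 and -0.84; adjusted p = 0.0817 and 0.0976).

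Among the rest, Mfsd2a, the lipid transporter of the blood-brain barrier, was at 15.6 and 23 CPM in cKO and 0.511 and 1.16 CPM in cKO/AD (log2 -4.50, adjusted p = 0.0338). Sema3f, a guidance factor, was at 13.1 and 17.6 and at 0.681 and 1.07 CPM, and Nhlrc1, a ubiquitin ligase gene, at 17.5 and 17.6 and at 0.852 and 1.47 CPM (log2 -4.11 and -3.90; adjusted p = 0.0353 and 0.0310). Fndc10 was at 27.6 and 52 and at 2.61 and 3.70 CPM (log2 -3.65, adjusted p = 0.0236). Also lower were Syvn1, a ubiquitin ligase of the endoplasmic reticulum, Kdelr1, a retrieval receptor of that compartment, and the ubiquitin ligase genes Trim62 and Neurl1a (log2 -2.26, -1.94, -2.32 and -1.88; adjusted p = 0.0236 to 0.0465). Of these 4, Kdelr1 alone passed with GC content corrected (log2 -1.54, adjusted p = 0.0405). Further falls, from -4.41 for Gm44675 to -1.34 for Cnpy1, were those of Trim47, Sphk2, Fxr2, Afap1l2, Gm21887, Marcksl1, G530011O06Rik, Wscd2, Repin1, Asphd2, Abhd16a, Atp2b3, Gm44675 and Cnpy1. Atp2b3 encodes a calcium pump of the plasma membrane and Sphk2 a sphingosine kinase.

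**Figure D4:**
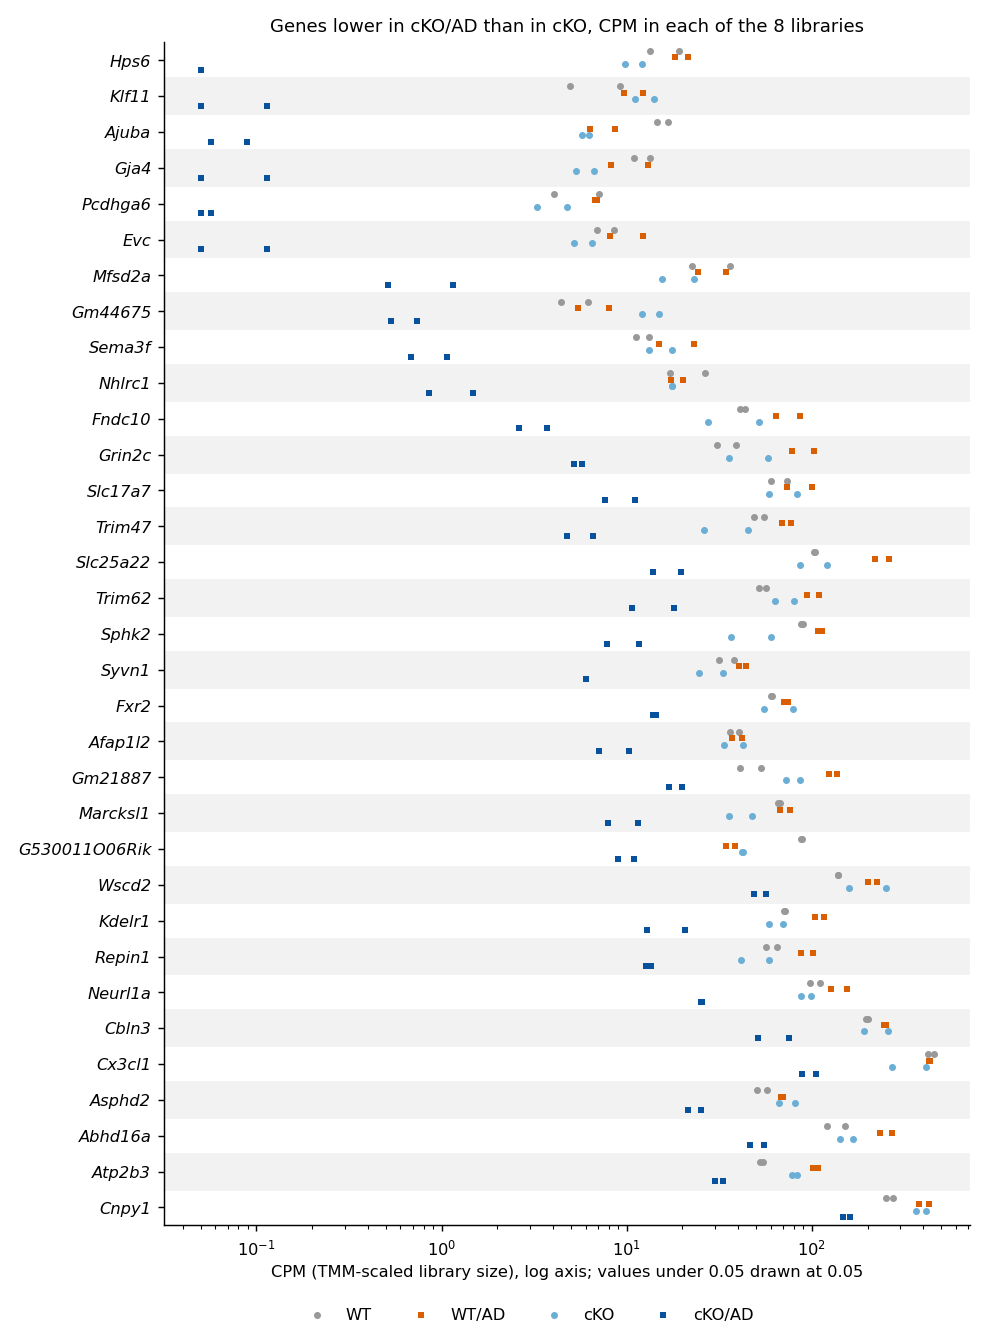
Each point is 1 library; the x axis is CPM on a log axis (values under 0.05 are drawn at 0.05), rows are 33 of the 34 genes lower in cKO/AD than in cKO, circles are libraries without AD (WT grey, cKO light blue) and squares libraries with AD (WT/AD orange, cKO/AD dark blue). In every row the dark blue squares lie to the left of the other 6 points, most widely for Hps6 and Klf11.

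The falls differed from the rises in base composition. The median transcript GC content was 57.3% over the 34 falls, 45.7% over the 14 rises and 48.5% over genes not called. Across all tested genes the log2 difference correlated with GC content at r = -0.168, which describes genes and not replicates, and at 0.0197 after the correction. The uncorrected difference with Calhm2 intact, WT/AD minus WT, correlated with GC content the other way, at r = 0.191. Both trends enter the uncorrected interaction, which subtracts that difference. The correction kept the sign of 14 of 14 rises and 33 of 34 falls; the exception, Gm21887, a predicted gene at 69.7% GC, went from -2.11 to 0.04. Over the falls the median log2 difference went from -2.29 to -1.62 and over the rises from 2.61 to 2.39. The part of base composition in these falls was not tested beyond this correction.

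**Figure D5:**
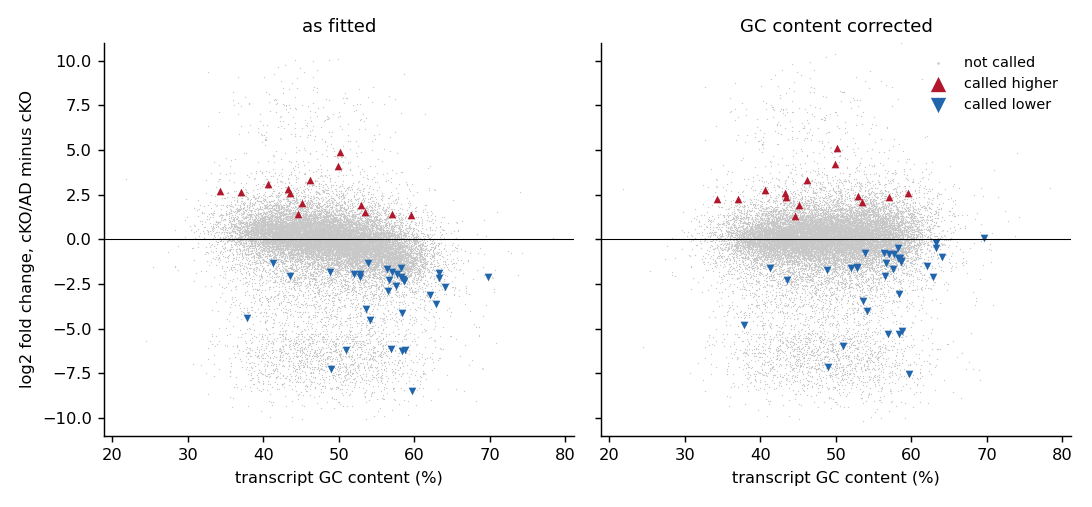
Each point is a tested gene; the x axis is transcript GC content in percent and the y axis the log2 fold change of cKO/AD minus cKO, as fitted (left) and with GC content corrected (right). Red triangles are the 14 genes called higher and blue triangles the 34 called lower by the fit on the left; after the correction the blue triangles at high GC content move toward 0 while the red ones stay well above it.

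Markers of other cell types were read beside these results. For neurons 1 of 20 markers fell, Slc17a7, and 0 rose, where 0.154% and 0.0634% of all tested genes did. The neuron markers' summed level was 9643 and 8818 CPM in cKO and 9617 and 9849.7 CPM in cKO/AD, with a median log2 difference of -0.13. Snap25, a presynaptic fusion protein gene, was at 751 and 597 and at 1055 and 709 CPM, and Syp and Grin1 had differences of -1.14 and -1.28 (adjusted p = 0.0605 and 0.0590). Of the 20, 10 were lower in both cKO/AD libraries than in both cKO libraries and 4 higher, where 31.1% and 20.3% of all tested genes were. Oligodendrocyte markers had a median of -0.61 (0 of 15 passed) while their summed level went from 7342 and 6971 to 11239 and 9073 CPM. Mbp, a main myelin gene, was at 675 and 934 and at 107 and 362 CPM (log2 -1.78, adjusted p = 0.0883), opposite in sign to that sum. Oligodendrocyte precursor markers were negative in 10 of 10, where 55.6% of all tested genes were (median -1.03, or -0.34 with GC content corrected), with sums of 145 and 229.5 CPM in cKO and 55.9 and 102 CPM in cKO/AD. Endothelial markers summed to 755 and 803 CPM and to 639 and 701 CPM (median -0.36, 0 of 16), beside which stand the falls of Gja4 and Mfsd2a. Mural (median -0.73), astrocyte (0.34), neutrophil (-0.38), monocyte (-0.33), border macrophage (0.12), T and NK cell (0.32), B cell (0.60), erythrocyte (-2.20) and choroid plexus (-0.82) markers had 0 genes past the threshold. The part of other cell types in the falls was not tested.

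Genes of the response with Calhm2 intact were then read in the knockout. The list was chosen in the 4 WT and WT/AD libraries alone and holds 738 genes higher and 632 lower in WT/AD. Those 4 libraries also enter the estimate of the spread behind the calls in the knockout, so genes chosen for passing there may pass more readily here, and the counts of calls are not independent of the choice. In the fit of all 8 libraries, WT/AD against WT passed for 7 genes higher and 3 lower. The cKO and cKO/AD libraries fitted alone gave 0 and 0. The 738 and 632 are therefore not comparable with the 14 rises and 34 falls, which come from the fit of all 8. Of the 738, 10 rose in cKO/AD against cKO (Cst7, Ctse, Ccl3, Clec7a, Spp1, Lpl, Ccl6, Plaur, Capg and Apoe), where 0.0634% of all tested genes did, and 11 fell (among them Kdelr1, Abhd16a, Slc25a22, Grin2c, Atp2b3, Trim62, Cnpy1, Wscd2, Fndc10 and Gm21887), where 0.154% did. Their median log2 difference was -0.73 and 22.9% were positive, where 44.4% of all tested genes were. Of the 632, 0 rose and 1 fell, G530011O06Rik, with a median of 0.27 and 61.4% positive. The negative median of the 738 did not hold with GC content corrected: with the correction in both the choice of genes and the contrast, 345 genes were chosen as higher, and 9 of them rose, 2 fell, the median was 0.03 and 51.9% were positive. Among the called genes, 12 of the 14 rises and 6 of the 34 falls had the same sign of difference with Calhm2 intact, as had 41.8% of the genes not called. These signs are of differences not corrected for GC content. Across all tested genes those differences correlated with GC content at r = -0.168 in the knockout and 0.191 with Calhm2 intact. Ptgds, a prostaglandin D synthase gene that differed by 2.48 with Calhm2 intact, was at 205 and 251 CPM in cKO and 208 and 260.3 CPM in cKO/AD (log2 0.04, SE 0.23, adjusted p = 0.950). With GC content corrected its log2 difference in the knockout was 0.91.

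The test of whether the AD difference depends on the genotype, the interaction, passed for 6 genes (0.0272% of those tested), while 4846 had an unadjusted p under 0.05. The 2 differences it compares share no library. Slc25a22 (-3.85), Grin2c (-4.47), Hps6 (-8.78) and Gm21887 (-3.58) fell with Calhm2 deleted and had differences of 1.22, 1.37, 0.29 and 1.47 with it intact (interaction adjusted p = 0.0331, 0.0371, 0.0371 and 0.0331). The predicted genes Gm10800 and Gm10801, whose counts are uncertain where copies share reads, had values of 12.58 and 12.34. None of the 40 DAM genes passed this test. With GC content corrected 4 genes were higher and 1 lower, so at most 1 of Slc25a22, Grin2c, Hps6 and Gm21887 stayed past the threshold. Leaving out either WT library, cKO replicate 2 or either WT/AD library left 1 gene higher and 0 lower. Without cKO replicate 1 it was 3 and 24, without cKO/AD replicate 1 it was 1115 and 1956, and without cKO/AD replicate 2 it was 2717 and 5167.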

How the data were processed

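RNA was taken with Trizol from microglia of mouse brain, and 1 ug of it went into each Illumina TruSeq library, per the labels' protocols. The authors' deposited values are unnormalised whole-number counts of reads, 1 row per gene (55421) and 1 column per library. Per the submitters' processing notes the build was mm9. Aligner, counting tool and strand setting were not stated, so reads of overlapping or antisense genes may be shared. All 8 columns were used (0 left over). Groups and replicate numbers came from each sample's source name, and 1 column was matched to a title that adds a suffix to its name.

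The main test was edgeR 4.0.16 (R 4.3.3), quasi-likelihood and two-sided, on the 22089 genes kept by filterByExpr, with TMM factors from 0.873 to 1.11. All 8 libraries entered a model of group means with 4 residual degrees of freedom. P-values were adjusted by Benjamini-Hochberg across the genes tested, at a threshold of 0.05, and each adjusted p is edgeR's. Standard errors come from the fold change and its F statistic. The interaction subtracts the WT/AD minus WT difference from the cKO/AD minus cKO difference. Ratios resting on 1 to 3 counts carry exact 95% intervals for counting error.

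The GC correction fits, per library, a loess (span 0.4) of log2 CPM deviations against transcript GC content where the mean log2 CPM exceeds 2, and enters as an offset. GC content and length came from GENCODE M21, of a later build, and covered 99.87% of tested genes. Alternatives were DESeq2 1.42.0 and its size factors, limma-voom (3.58.1) with and without group weights, library size alone, other filters, 4 libraries alone, a replicate block, a length correction and each library left out. The newer edgeR spread estimate was added after seeing the data. Same-numbered libraries of cKO and cKO/AD deviated together at r = 0.0972, and other group pairs at -0.0358 to 0.0479, so numbers were not taken as pairs.

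Members and the 32 gene lists were chosen with earlier results of these data known, so lists carry no p. Named genes are Calhm2, the 10 largest called rises and 10 largest called falls (groups apart, at least 5 CPM in the higher, no predicted-gene or clone names), the same kept under GC correction, up to 4 called genes of a list, a fixed set and interaction calls; further genes were named with values seen. Scripts were tested on simulated counts. Promoter windows are RefSeq's. Some genes that these rules name are not reported here.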

Additional observations from a re-analysis of the deposited data

Results flagged for a closer look

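In 6 genes the AD difference in the knockout differed from that with Calhm2 intact by the interaction test of edgeR, on the log2 scale. Slc25a22 (-3.85) had 1741 and 2754 counts in cKO and 243 and 438 in cKO/AD, against 2158 and 2066 in WT and 6597 and 5530 in WT/AD. Grin2c (-4.47) had 716 and 1322 counts in cKO and 101 and 116 in cKO/AD, against 649 and 769 in WT and 2571 and 1974 in WT/AD. In both genes AD went with fewer counts in the knockout and with more in the intact genotype.

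Hps6 (-8.78) had 197 and 274 counts in cKO and 0 and 1 in cKO/AD, while the 4 libraries with Calhm2 intact held 283 to 542. Gm21887 (-3.58), a predicted gene, had 1460 and 1972 counts in cKO and 351 and 378 in cKO/AD, against 857 and 1059 in WT and 3111 and 3436 in WT/AD. With GC content corrected its interaction was -0.52, and those of Slc25a22, Grin2c and Hps6 were -2.44, -2.22 and -7.32. The interaction test with that correction called 1 gene lower, so at most 1 of these genes stayed past the threshold.

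The predicted genes Gm10800 (12.58) and Gm10801 (12.34) had the opposite order. Gm10800 had 604 and 1233 counts in cKO and 3143 and 2815 in cKO/AD, but 17818 and 12984 in WT and 9 and 13 in WT/AD. Gm10801 had 30 and 81 counts in cKO and 105 and 154 in cKO/AD, but 1283 and 870 in WT and 1 and 0 in WT/AD, so its fitted value depends on the prior count. Counts of such genes are uncertain where copies share reads.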

How the results depend on the processing

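Genes called higher and lower numbered 14 and 34. They numbered 14 and 30 with DESeq2 size factors, 18 and 139 by library size alone, 1436 and 1915 by DESeq2, 73 and 47 by limma-voom, 137 and 10 with group weights, 1123 and 1934 without a filter, 106 and 232 with a stricter one, 0 and 0 with the 4 libraries alone, 12 and 13 with GC content corrected, 15 and 21 with length corrected, 368 and 425 with the newer spread estimate and 292 and 100 with that and the GC correction. With 1 library left out the range was 0 to 3017 higher and 0 to 5553 lower. With the replicate block, 9 were higher and 13 lower (8 and 13 of the original calls), or 10 and 5 with the GC correction as well; the interaction then had 1 higher and 0 lower in both. All 14 rises kept their sign in each of these settings. Of the original calls limma-voom kept 14 rises and 20 falls, and with group weights 14 and 4. The all-gene median of -0.13 shifted by -0.22 (library size alone), -0.17 (limma-voom), 0.13 (no filter, GC or length correction, without cKO replicate 2), 0.11 (without cKO replicate 1) and -0.34 (without cKO/AD replicate 2).

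The interaction, 2 higher and 4 lower, had 5 and 15 with DESeq2 size factors, 4 and 20 by library size alone, 1226 and 1537 by DESeq2, 263 and 421 by limma-voom, 563 and 340 with group weights, 1070 and 1600 unfiltered, 121 and 223 with the stricter filter, 4 and 1 with GC content corrected, 318 and 505 with the newer spread estimate and 38 and 20 with that and the GC correction. Over left-out libraries it ranged from 1 to 2717 higher and 0 to 5167 lower; on the 4 libraries alone it could not be fitted.

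The median of the 738 genes higher with Calhm2 intact, -0.73, was 0.0276 with GC content corrected and -1.08 to -0.54 over left-out libraries. That of the 632 lower genes, 0.27, was 0.11 for a 2-fold list, 0.20 with GC content corrected, 0.0401 by library size alone and 0.18 to 0.29 over left-out libraries.

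Among genes that the naming rules take, signs that turned were all of genes not called, Gm21887 apart. Tyrobp was at 0.26, 0.24 and 0.18 with the GC correction alone, with the block and with the newer spread estimate, and in the same order P2ry12 was at -0.0362, -0.0447 and -0.0362. Gm21887 was at 0.0434 and 0.0290 with the GC correction alone and with the block. Ptgds was at -0.18 by library size alone. Over left-out libraries Ptgds ranged from -0.14 (without cKO/AD replicate 2) to 0.19, Csf1 from -0.31 (without cKO/AD replicate 2) to 1.01, Il1b from -1.58 to 0.74 (without cKO replicate 2), Nlrp3 from -3.58 to 0.27 (without cKO/AD replicate 1) and Tnf from -9.11 to 0.90 (without cKO/AD replicate 1). Tnf was at 0.0423 with the GC correction, 0.0433 with the newer spread estimate and 0.33 with both. For single named genes 284 further values lost the call, 31 gained one and 782 did neither. The cause was not tested.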
